A study of Mus musculus with 24 samples.

Results

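Cytosolic ribosomal proteins are the protein components of the 2 subunits of the ribosome that translates nuclear-encoded mRNA. The array held 88 probes of 59 such genes among its 45281 probes, taken by gene symbol: Rpl or Rps followed by digits and at most 1 of the letters a, l or x, together with Rplp0, Rplp1, Rplp2 and Rpsa, and without symbols that contain -ps. Of these, 73 probes of 52 genes were bright enough to be tested and 15 were not. No probe of Rpl5, Rpl11 or Rps27a was among them. The intensities come from the livers of male C57BL/6J mice aged 16 weeks, measured on an Illumina bead array as 24 samples in 4 groups of 6 after 10 weeks of feeding. Control mice had a normal diet and plain water, high-sugar mice the normal diet and drinking water that held 23% (w/v) sugar, high-fat mice a high-fat diet and plain water, and high-fat high-sugar mice the high-fat diet and the sugar drink. Which sugar the drink held and how the fat was made up are not stated in the text used here, and nothing in the labels ties each replicate number to 1 animal, so p-values measure the spread between samples. The labelled tissue was checked against hepatocyte markers: Apoa1 had a mean intensity of 21894 and Ttr of 11546, Alb only 114 on its probe, and Tat was above the noise limit on 1 of 24 arrays.

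As background, ribosomal proteins are made in near-equal numbers for each ribosome and, in mammals, their mRNAs begin with a C followed by a run of pyrimidines, the 5′ terminal oligopyrimidine (TOP) element, through which the growth-sensing kinase complex mTORC1 controls their translation. Proteins of the small subunit line the path of the mRNA and the decoding site. Proteins of the large subunit surround the peptidyl transferase centre and the exit tunnel, and the stalk proteins Rplp0, Rplp1 and Rplp2 recruit elongation factors. The liver makes most plasma proteins and holds these mRNAs in large amounts. Because of many processed pseudogenes and some paralogs with near-identical sequence, a probe may also take up signal from a transcript other than its named gene.

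Start-site sequences are shown for the named genes that changed most clearly with sugar on the normal diet and for which a sequence was given. Rps9, Rps10 and Rps15 each had a probe that fell, while Rpl4 and Rps3 each had a probe that rose. Each run covers 200 bases before and 25 bases from the annotated start, 5′ to 3′ on the gene's strand, from RefSeq on GRCm38.p6. The positions are chr7:3703841-3704065 (plus strand) for Rps9, chr17:27635220-27635444 (minus strand) for Rps10, chr10:80292231-80292455 (plus strand) for Rps15, chr9:64173187-64173411 (plus strand) for Rpl4 and chr7:99483685-99483909 (minus strand) for Rps3. Capitals mark CTTTCC or CTTCCT on the gene's strand and CCGGAAG, the core of an ETS-type motif, on either strand.
Rps9: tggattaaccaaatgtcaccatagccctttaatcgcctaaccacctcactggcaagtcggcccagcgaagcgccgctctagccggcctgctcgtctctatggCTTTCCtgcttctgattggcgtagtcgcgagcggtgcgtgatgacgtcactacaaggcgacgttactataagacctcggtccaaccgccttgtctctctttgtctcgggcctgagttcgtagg
Rps10: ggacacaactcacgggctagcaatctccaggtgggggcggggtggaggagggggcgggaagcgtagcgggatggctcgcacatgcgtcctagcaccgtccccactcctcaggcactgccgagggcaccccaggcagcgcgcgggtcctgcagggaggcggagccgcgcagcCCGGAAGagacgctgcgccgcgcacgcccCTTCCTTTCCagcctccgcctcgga
Rps15: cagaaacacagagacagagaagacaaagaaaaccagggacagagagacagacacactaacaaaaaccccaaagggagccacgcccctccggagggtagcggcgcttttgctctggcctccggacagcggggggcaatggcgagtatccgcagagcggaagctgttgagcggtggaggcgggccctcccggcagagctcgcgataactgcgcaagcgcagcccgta
Rpl4: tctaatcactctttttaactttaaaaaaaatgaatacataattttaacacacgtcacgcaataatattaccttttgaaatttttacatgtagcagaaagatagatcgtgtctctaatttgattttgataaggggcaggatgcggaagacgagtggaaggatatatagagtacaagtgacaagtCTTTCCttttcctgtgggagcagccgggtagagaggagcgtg
Rps3: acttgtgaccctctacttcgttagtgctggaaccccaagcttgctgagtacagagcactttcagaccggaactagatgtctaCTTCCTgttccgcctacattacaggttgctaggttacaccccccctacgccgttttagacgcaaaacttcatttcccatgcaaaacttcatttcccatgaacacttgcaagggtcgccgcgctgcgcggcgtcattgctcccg

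The Rps10 run holds an ETS-type core, and CTTCCT and CTTTCC that overlap each other. The printed Rps15 run holds none of these letters. In windows of 300 bases (250 before and 50 from the start), found for 48 of the 59 genes (58 windows), CCGGAAG was in 39.7% of the windows on either strand, against 8.86% of all 32851 windows in the table. The palindrome made of TCT, CGCG and AGA in that order was in 10.3% against 0.466%, CTTTCC on the gene's strand in 36.2% against 14.1%, and a C at the annotated start followed by 4 pyrimidines in 15.5% against 2.51%.

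The same windows were split into those of genes with a probe lower with sugar on the normal diet (26 windows) and those of the other tested genes (26 windows). CTTCCT on the gene's strand was in 16 of the 26 windows of the lower genes (61.5%) and in 2 of the 26 others (7.69%), beside 19.0% of all windows. Counted by gene, these were 12 of 21 and 2 of 22. On either strand CTTCCT was in 76.9% and 23.1%. The other letters were closer between the 2 sets: 42.3% and 38.5% for CCGGAAG, 7.69% and 15.4% for the palindrome, 38.5% and 34.6% for CTTTCC on the gene's strand and 50.0% in each on either strand, and 23.1% and 7.69% for the C at the start. These 5 motifs gave 7 searches. All were picked after the windows of these genes had been looked at, and the split used the calls described here, so the contrast for CTTCCT is a description of these windows with no test. CCGGAAG reads CTTCCGG on the other strand and shares its first letters with CTTCCT.

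Ribosomal protein probes were among the brightest on the array. Of the 73 tested probes, 33 had a mean intensity over 4096 (linear scale, arbitrary units), a level reached by 2.80% of all tested probes, and 27 were among the 500 brightest of the array. The brightest was that of the stalk protein Rplp1 with a mean of 24313, and the median over the tested probes was 3075. Intensity depends on each probe's sequence, so it does not rank the genes. Of the 15 probes not tested, 14 never exceeded the noise limit of 6.50 to 6.52 on any array. They were for Rpl14, Rpl17, Rpl39l, Rpl6, Rps20 and Rps23, and for second or later probes of Rpl23, Rpl37 (2 probes), Rpl4, Rplp0, Rplp2, Rps24 and Rpsa. The remaining probe was that of Rpl3l, the paralog of Rpl3 used in striated muscle.

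On the normal diet, the sugar drink was followed by lower signals for a broad set of ribosomal proteins of both subunits. Of the 73 tested probes, 27 (of 24 genes) fell, 3 rose and 43 did not pass, at an adjusted p under 0.05. Over all 20216 tested probes 13.8% fell and 14.2% rose, so the share of ribosomal protein probes that fell, 37.0%, was above the background and the share that rose, 4.11%, below it. The 27 probes that fell varied together across the samples of a group, with pairwise correlations of −0.20 to 0.95 (median 0.64). They are therefore not 27 separate results. The median log2 change was −0.18 for the ribosomal protein probes and −0.02 for all probes. The changes were moderate, from −0.73 to 0.46 on the log2 scale of intensity plus 32.

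Among small-subunit proteins, Rps15, whose tail reaches the decoding site, had the largest fall. Its intensities (probe ILMN_2671517) were 3040, 3736 and 4803 as lowest, median and highest in control samples, and 1847, 2312 and 2737 in high-sugar samples. All 6 high-sugar samples lay below all 6 control samples, a change of −0.73 ± 0.12 (SE, n = 6 per group, 1.66-fold lower, limma adjusted p = 4.38e-05). Here and below, folds are of intensity plus 32, and errors are standard errors of the limma fit.

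Rps9, a protein near the mRNA entry site, had the smallest adjusted p. Probe 2 (ILMN_2643092) gave 6988, 7427 and 8948 as lowest, median and highest in control samples and 4347, 4990 and 5528 in high-sugar samples. The groups did not overlap, and the change was −0.60 ± 0.08 (limma adjusted p = 1.64e-06). Probe 1 of Rps9 (ILMN_1377921) also separated the groups, with 14701 to 18491 in control and 12353 to 13555 in high-sugar samples and a smaller change of −0.28 ± 0.06 (adjusted p = 0.000848).

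Rps10, a gene mutated in some patients with Diamond-Blackfan anaemia, a congenital red cell failure caused by ribosomal protein loss, fell by 0.59 on the log2 scale (SE 0.09, limma adjusted p = 2.39e-05). Control intensities (ILMN_2897617) were 3275, 4142 and 4714 as lowest, median and highest, and high-sugar intensities 2303, 2805 and 3068. The 2 groups were apart here too. Of the genes known from this disease, 15 probes of 10 genes were tested, of which 4 fell and 0 rose, beside the same background of 13.8% and 14.2%. Of all tested ribosomal protein probes, which include these 15, 37% fell and 4.11% rose.

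**Figure D1:**
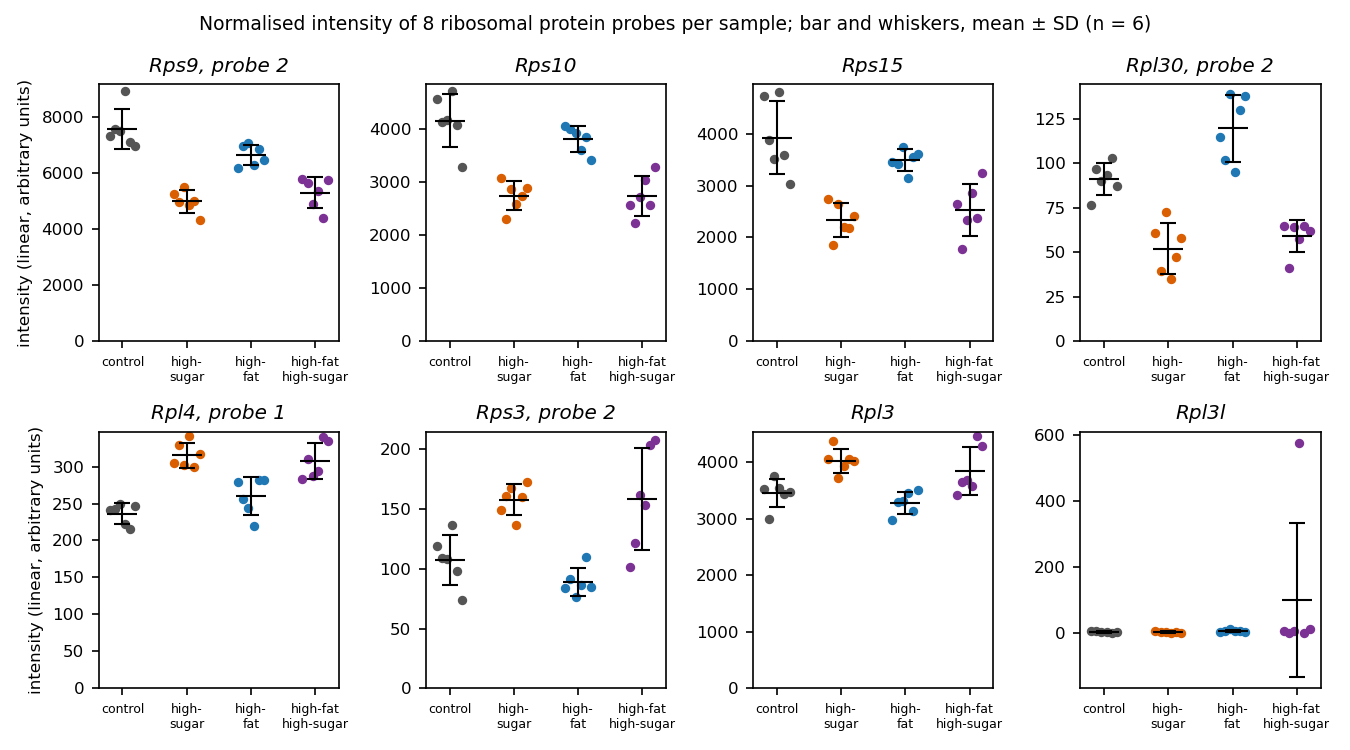
Normalised intensity (linear, arbitrary units, vertical axis from 0 except for Rpl3l) of 8 ribosomal protein probes in each of 24 samples by diet group. Points are samples, and the bar with whiskers is the mean ± SD (n = 6). For Rps9 probe 2, Rps10, Rps15 and Rpl30 probe 2 every high-sugar point lies below every control point, Rpl4 probe 1 shows the opposite, and Rpl3l stands at 576 in 1 high-fat high-sugar sample.

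Among large-subunit proteins, the smallest adjusted p of those that fell was that of Rpl30 probe 2 (ILMN_2878424), a dim probe. It gave 76.4, 91.5 and 103 as lowest, median and highest in control samples and 34.9, 52.4 and 72.6 in high-sugar samples, without overlap. The change was −0.56 ± 0.10 (limma adjusted p = 0.000153). Probe 1 of Rpl30, which was brighter, gave −0.18 with a 95% interval of −0.42 to 0.07 and did not pass.

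Counted by subunit, 14 of 43 large-subunit probes fell and 2 rose (median −0.18), and 13 of 30 small-subunit probes fell and 1 rose (median −0.27). The difference between subunits was not tested. The other genes with a probe that fell were Rps12, Rps13, Rps16, Rps19, Rps21, Rps24, Rps25 and Rps26 of the small subunit, and Rpl13a, Rpl23, Rpl27a, Rpl28, Rpl29, Rpl34, Rpl35, Rpl36a, Rpl37, Rpl38, Rplp1 and Rplp2 of the large subunit. Their changes lay between −0.66 (Rpl34) and −0.22 (Rpl23 probe 3). The brighter probe 1 of Rpl23 did not pass, with 8152 to 12933 in control and 9458 to 14407 in high-sugar samples.

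Of the stalk proteins, Rplp1 and Rplp2 fell, while Rplp0 was measured only by a dim probe. Rplp2 fell, with intensities of 7167, 7677 and 9072 as lowest, median and highest in control samples and 3601, 5973 and 6639 in high-sugar samples (−0.49 ± 0.12, limma adjusted p = 0.00226). Rplp1 fell less, from a median of 26177 to 20482 (−0.29 ± 0.07, adjusted p = 0.00319), and 1 high-sugar sample, at 26388, lay within the control range. The tested probe of Rplp0 was dim, with medians of 18.4 and 21.7, and its change of 0.12 ± 0.09 did not pass.

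The 3 probes that rose were of Rpl4, Rps3 and Rpl3. Rpl4, which binds the large-subunit RNA early in assembly and lines the exit tunnel, gave 215, 242 and 250 as lowest, median and highest in control samples and 299, 311 and 341 in high-sugar samples (probe 1, ILMN_2874507). The groups were apart, with a change of 0.37 ± 0.07 (limma adjusted p = 0.00025). Rps3, at the mRNA entry site, rose on its dim probe 2 (ILMN_2637639) from a median of 109 to one of 161, and 1 of the high-sugar samples fell just inside the control range (136.5 against 136.9 at the most).

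The Rps3 change was 0.46 ± 0.12 (adjusted p = 0.00482), while the brighter probe 1 of Rps3 gave 0.22 with a 95% interval of −0.03 to 0.46 and did not pass. Rpl3, a protein close to the peptidyl transferase centre, rose from 2998, 3503 and 3757 (lowest, median, highest) in control samples to 3724, 4041 and 4379 in high-sugar samples (ILMN_2974021, 0.22 ± 0.07, limma adjusted p = 0.0213). The Rpl3 groups overlapped slightly. Without control replicate 2 or without high-sugar replicate 2 the Rpl3 change no longer passed (adjusted p = 0.0623 and 0.0527).

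For 4 further members with roles outside the ribosome's core or as paralogs, the change on the normal diet did not pass. Rps6, the substrate of S6 kinase, had medians of 9850 (control) and 8733 (high-sugar) (−0.18 ± 0.08, limma adjusted p = 0.0881). The Rps6 change passed with array weights (adjusted p = 0.0383) and without control replicate 1 (adjusted p = 0.0328). Rpsa, also called the laminin receptor, was measured only by a dim probe with medians of 8.69 and 8.17. Rps27l, in human cells a paralog of Rps27 induced by p53, had medians of 8840 and 9252, and Rps4l of 355 and 291.

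The falls were most frequent among the bright probes. Over a mean intensity of 4096, 18 of 33 ribosomal protein probes fell and 0 rose (median −0.34), beside 18.9% that fell and 18.7% that rose among the 534 other probes of that brightness (median 0.02). From 1024 to 4096, 5 of 15 fell and 1 rose, beside 16.5% and 19.4% of the other probes in that range. From 64 to 1024, 4 of 14 fell and 2 rose, beside 19.1% and 18.5%, and up to 64 no member of 11 passed, beside 10% and 11.1%. With 11 to 15 members, these 3 ranges hold too few to set apart from the other probes. These limits of brightness were set after the data were seen. In 9 probes all high-sugar samples lay below all control samples and in 1 all lay above, beside 4.56% and 6.94% of all probes. One of the 9, of Rps4x, had an adjusted p of 0.056 and did not pass.

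**Figure D2:**
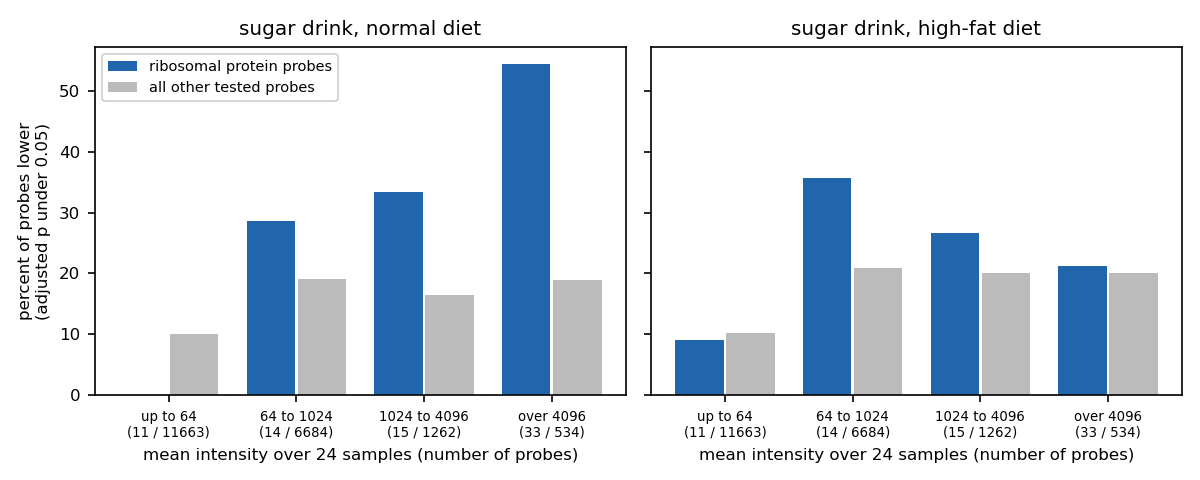
Percent of tested probes that fell with the sugar drink (adjusted p under 0.05, bars from 0) by mean intensity over 24 samples, for ribosomal protein probes (blue) and all other tested probes (grey), on the normal diet (left) and the high-fat diet (right). Over 4096 on the normal diet, 18 of 33 ribosomal protein probes fell against 18.9% of the 534 others, while on the high-fat diet 7 of 33 fell against 20%.

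Samples differed within groups. For each sample, the median over the 33 bright probes of the log2 deviation from the probe's mean over 24 samples ranged from −0.01 to 0.36 in the control group and from −0.52 to 0.08 in the high-sugar group, which overlapped. High-sugar replicate 2 was the lowest of all 24 samples. Without it, 21 probes fell and 2 rose on the normal diet in place of 27 and 3. On the high-fat diet the same median ranged from −0.09 to 0.13 with water and from −0.33 to 0.14 with the sugar drink, and these groups overlapped as well.

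**Figure D3:**
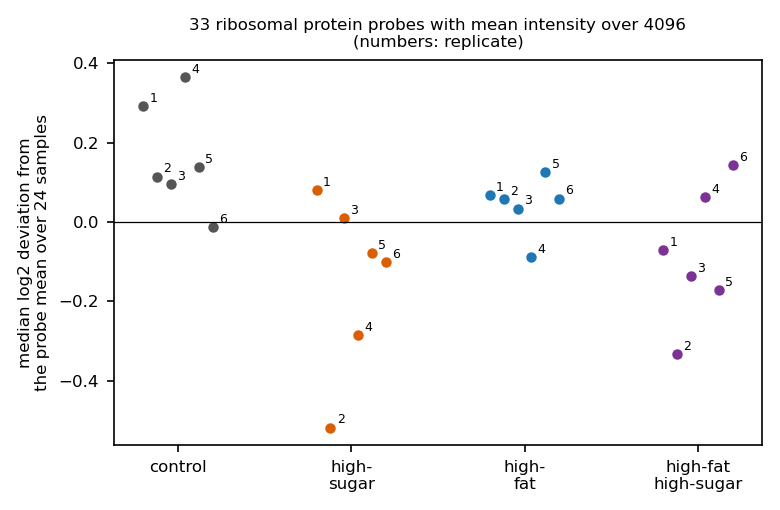
Median over 33 ribosomal protein probes (mean intensity over 4096) of the log2 deviation from the probe's mean over 24 samples, for each sample, by diet group. Numbers are replicates, and the line marks 0. Control samples lie between −0.01 and 0.36 and high-sugar samples between −0.52 and 0.08, with replicate 2 lowest in each of the sugar groups.

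Markers of other cell types were also counted, beside the 14.2% of all probes that rose and 13.8% that fell. Lists this small can hardly be set apart from those shares by count. With sugar on the normal diet, 3 of 16 stellate cell probes rose and 0 fell, and their summed intensity was 4152 to 5084 in high-sugar and 3848 to 4044 in control samples. Of 15 macrophage probes 4 rose and 1 fell (sums of 4210 to 7190 and 4899 to 5495), and of 15 endothelial probes 3 rose and 4 fell (5988 to 7398 and 5134 to 6424). Col3a1 of the stellate list and Cd5l of the macrophage list were never above the noise limit, while no endothelial gene was so low. Of 4 probes of pancreatic genes, which are listed for another organ, 2 rose (sums of 5388 to 6290 and 3464 to 3974). Of 9 hepatocyte probes 4 rose and 2 fell. Of 8 lymphocyte probes 0 rose and 1 fell, and 0 of 13 erythroid, 5 neutrophil and 2 cholangiocyte probes passed. The part of these cells in the ribosomal protein results was not tested, and fewer cells of a type and less RNA per cell cannot be told apart in whole tissue.

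On the high-fat diet, the sugar drink was followed by calls in both directions. Of the 73 probes 17 (of 15 genes) fell and 11 (of 10 genes) rose, beside 14.7% that fell and 14.9% that rose over all tested probes. The share that rose, 15.1%, was near the background, and the share that fell, 23.3%, above it. Among probes with a mean intensity over 4096, however, 7 of 33 fell, which was near the 20% of other bright probes. The median change was −0.10, against −0.02 for all probes. The 2 sugar comparisons share no sample. Of the 73 probes, 14 fell in both, 3 rose in both (Rpl3, Rpl4 probe 1 and Rps3 probe 2) and 0 passed in opposite directions, beside 6.04%, 8.57% and 0.218% of all tested probes. The changes correlated at Pearson's r = 0.79 across the 73 probes, some of which share a gene, and at 0.69 across all 20216, so the likeness of the diets was also seen over the whole array.

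**Figure D4:**
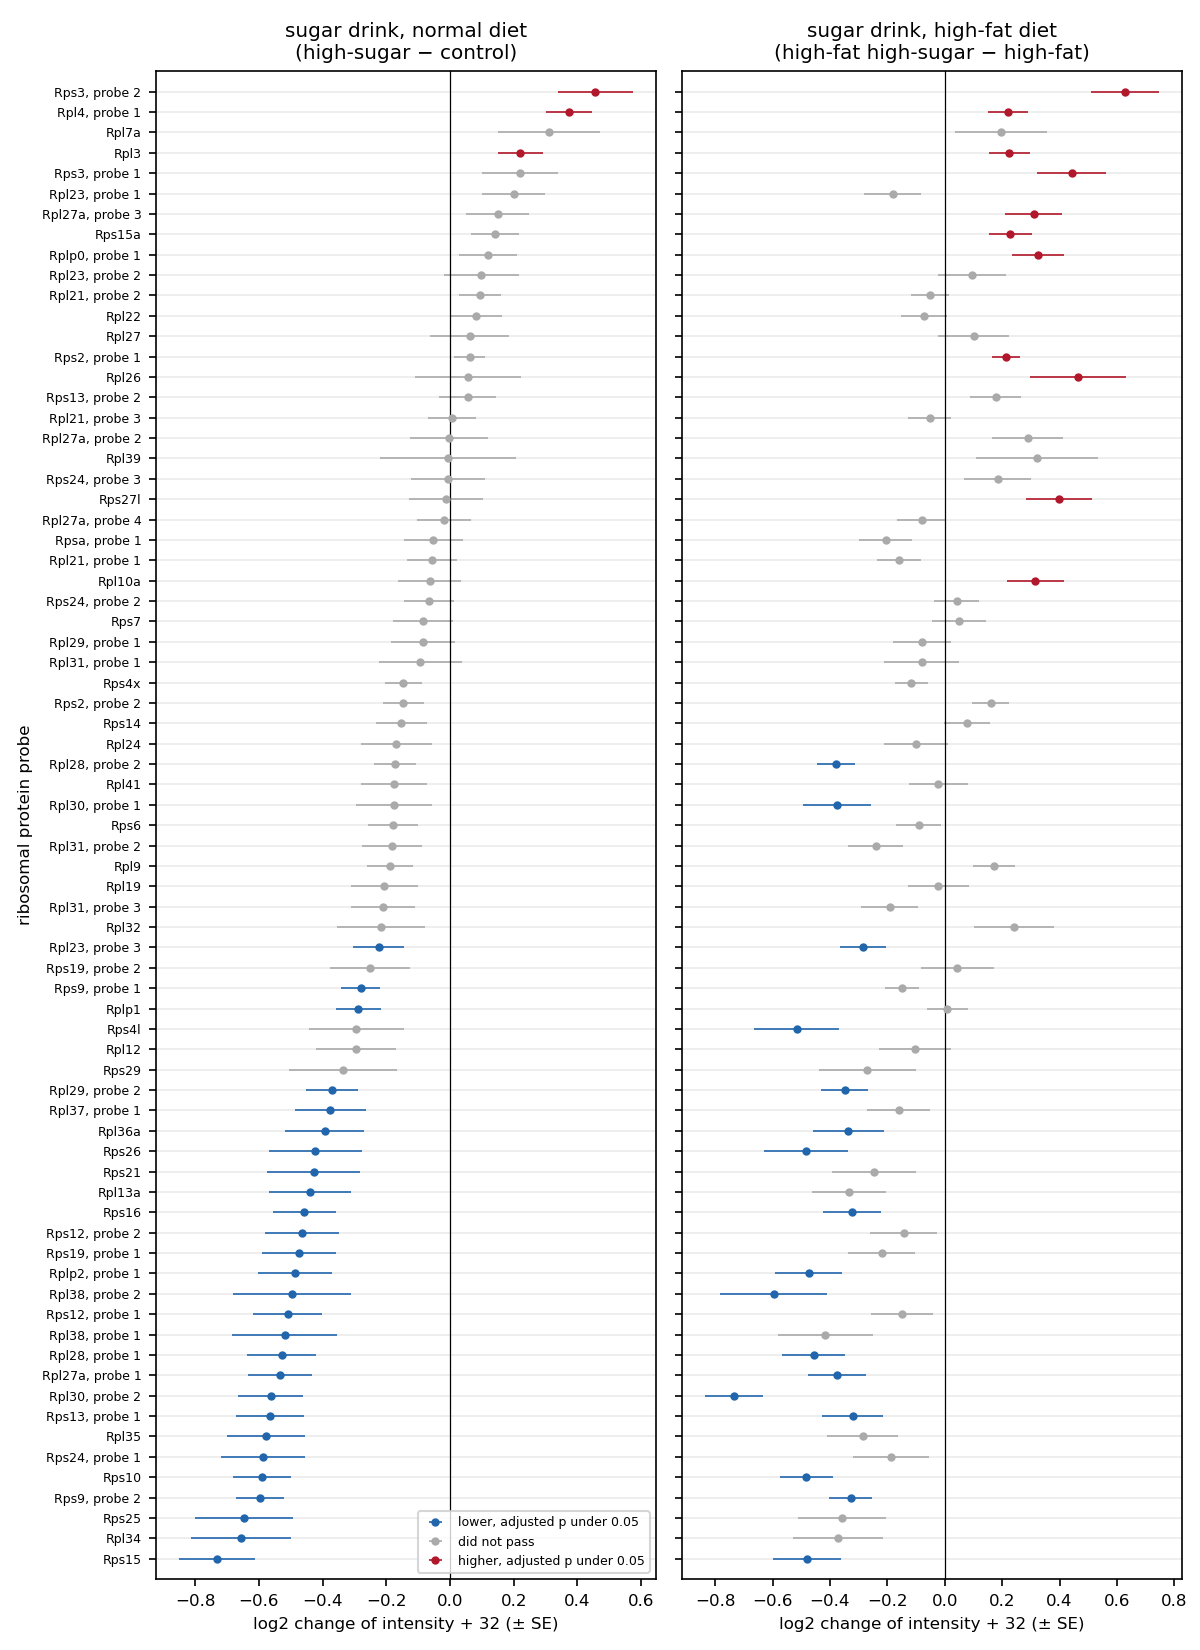
Log2 change of intensity + 32 (± SE, n = 6 per group) for each of the 73 tested ribosomal protein probes with sugar on the normal diet (left) and on the high-fat diet (right), ordered by the left panel. Blue fell, red rose and grey did not pass (adjusted p under 0.05), with 27 blue and 3 red on the left and 17 blue and 11 red on the right.

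Rpl30 probe 2 had the largest fall on the high-fat diet. It gave 94.9, 122 and 139 as lowest, median and highest in high-fat samples and 41.0, 63.1 and 64.7 in high-fat high-sugar samples. The groups did not overlap (−0.73 ± 0.10, limma adjusted p = 4.42e-06). Probe 1 of Rpl30 fell as well here (−0.38 ± 0.12, adjusted p = 0.0174).

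Rpl28, a large-subunit protein, fell on both of its probes without overlap of the groups. The bright probe 1 (ILMN_2759235) gave 4695, 5170 and 5646 in high-fat samples and 3002, 3822 and 4379 in high-fat high-sugar samples (−0.46 ± 0.11, limma adjusted p = 0.00193). The dim probe 2 (ILMN_2453804) had medians of 25.5 and 12.4 (−0.38 ± 0.07, adjusted p = 7.29e-05). Rps10 was again lower in every sample, with 3424 to 4052 in high-fat and 2220 to 3286 in high-fat high-sugar samples (−0.48 ± 0.09, adjusted p = 0.0002).

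Rps9 probe 2 fell from 6205 to 7072 in high-fat samples to 4394 to 5800 with the sugar drink (−0.33 ± 0.08, limma adjusted p = 0.00152), and the groups were apart. Rps15 fell too (−0.48 ± 0.12, adjusted p = 0.00307), but its groups overlapped on this diet, at 3152 to 3757 and 1781 to 3239. Of the stalk, Rplp2 fell by 0.47 (SE 0.12) and Rplp1 gave 0.01 ± 0.07. The dim Rplp0 probe rose, from medians of 15.0 to 24.9 (0.33 ± 0.09, adjusted p = 0.007).

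Among probes that rose, Rps3 probe 2 changed most. It gave 76.7, 85.6 and 110 as lowest, median and highest in high-fat samples and 102, 158 and 208 with the sugar drink, with a small overlap (0.63 ± 0.12, limma adjusted p = 0.000197). Probe 1 of Rps3 rose as well, from a median of 1542 to 1970 (0.44 ± 0.12, adjusted p = 0.00574). Both probes of this gene therefore passed on the high-fat diet.

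Rps2, a small-subunit protein at the mRNA entry site, was one of the brightest members. Its probe 1 (ILMN_2717549) gave 21693, 22053 and 23868 in high-fat and 24911, 25456 and 27239 in high-fat high-sugar samples, without overlap (0.21 ± 0.05, limma adjusted p = 0.00127). Rpl4 probe 1 was 220 to 281 in high-fat and 284 to 340 in high-fat high-sugar samples (0.22 ± 0.07, adjusted p = 0.0192), again apart. Rpl3 rose by 0.22 ± 0.07 (adjusted p = 0.0182) and Rps27l, from a median of 8039 to 10304, by 0.40 ± 0.12 (adjusted p = 0.0102). The paralog Rps4l fell (−0.52 ± 0.15, adjusted p = 0.00922).

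In 7 probes every high-fat high-sugar sample lay below every high-fat sample and in 2 above, beside 5.91% and 7.26% of all probes. Over 4096, 7 of 33 ribosomal protein probes fell and 3 rose, beside 20% and 21% of the other bright probes, which is near that background. Without high-fat high-sugar replicate 5 the number that rose was 7, and without replicate 2 of that group the number that fell was 12. Of the markers, 6 of 15 macrophage probes rose and 2 fell on this diet (sums of 6303 to 10458 with sugar and 5873 to 9005 without), and 5 of 16 stellate probes rose and 2 fell (4072 to 6460 and 3584 to 5099). Of endothelial probes 5 of 15 fell (5709 to 6956 and 6289 to 7562). Of 4 pancreatic probes 1 rose and 1 fell, with sums apart at 4161 to 5986 and 2697 to 3323, and of 9 hepatocyte probes 3 rose and 2 fell, with sums of 47720 to 55126 and 54240 to 62945. Their part in these results was not tested, and over all probes 14.9% rose and 14.7% fell.

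Whether the sugar drink acted differently on the 2 diets was tested by the interaction. No ribosomal protein probe passed in limma (smallest adjusted p = 0.0537), beside 1.01% of all probes higher and 1.5% lower. At an unadjusted p under 0.05, 10 of the 73 were higher and 2 lower, beside 8.36% and 9.3% of all probes, and with array weights 2 passed as higher. The median interaction was 0.12, against 0.00 for all probes, and 0.18 for the 33 bright probes. Rpl9, a large-subunit protein, came closest: its medians were 16823 in control, 14403 in high-sugar, 14107 in high-fat and 15814 in high-fat high-sugar samples. For Rps15 the interaction was 0.25 with a 95% interval of −0.09 to 0.60, for Rps10 0.11 (−0.16 to 0.37) and for Rpl4 −0.15 (−0.36 to 0.05), so these data do not settle whether such changes differ between diets.

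The high-fat diet alone changed few ribosomal protein probes. With water, 4 of 73 rose and 2 fell, beside 7.87% and 7.74% of all probes, which are larger shares. The median was −0.07, against 0.00. Rpl21 probe 2 (ILMN_2688863) was 22.2 to 32.5 in control and 35.9 to 47.2 in high-fat samples, apart and higher (0.27 ± 0.07, limma adjusted p = 0.0058), and was the 1 member whose groups did not overlap (2.86% of all probes higher, 2.59% lower). Rpl28 probe 2 rose from medians of 12.6 to 25.5 (0.28 ± 0.07, adjusted p = 0.00364). Both of these probes are dim. The bright probe 1 of Rpl28 did not pass, with 4268 to 6177 in control and 4695 to 5646 in high-fat samples. Rpl21 probes 1 and 3 did not pass either.

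Rps4l rose by 0.45 ± 0.15 (adjusted p = 0.0376) and Rpl30 probe 2 by 0.30 ± 0.10 (adjusted p = 0.0473). The brighter probe 1 of Rpl30 did not pass. Rpl32 fell from a median of 2080 to 1545 (−0.44 ± 0.14, adjusted p = 0.0283) and Rpl9 from 16823 to 14107 (−0.23 ± 0.07, adjusted p = 0.0283). Each of these 4 calls was lost when some single samples were left out, among them control replicate 1 for all 4 (adjusted p = 0.071 for Rps4l, 0.111 for Rpl30 probe 2, 0.0841 for Rpl32 and 0.0725 for Rpl9). Under other settings, Rps4l was lost with a floor of 16 (adjusted p = 0.0781) and with no filter (0.0635), Rpl32 with the floor (0.0565), Rpl9 with only the groups compared in the fit (0.0809), and Rpl30 probe 2 with an offset of 16, the floor, no filter, cyclic loess and array weights (0.0603 to 0.116). Of 15 macrophage probes 8 rose and 0 fell in this comparison (sums of 5873 to 9005 in high-fat and 4899 to 5495 in control samples). Of 9 hepatocyte probes 1 rose and 2 fell, of 15 endothelial probes 2 rose and 0 fell, and of 4 pancreatic probes 0 rose and 1 fell. Over all probes 7.87% rose and 7.74% fell, and the part of these cells in these 6 calls was not tested.

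With the sugar drink, the high-fat diet changed 2 probes: Rps2 probe 2 rose and Rpl23 probe 1 fell, beside 3.32% and 3.73% of all probes. Rps2 probe 2 (ILMN_2946616) gave 16801, 16908 and 19330 in high-sugar and 17363, 21001 and 24155 in high-fat high-sugar samples (0.26 ± 0.06, limma adjusted p = 0.0115). Rpl23, a protein that in human cells binds the p53 regulator MDM2, gave 9458, 12430 and 14407 and then 8607, 9358 and 9636 on probe 1 (−0.40 ± 0.10, adjusted p = 0.0118). The groups overlapped for each, and no member's groups were apart in this comparison (1.47% of all probes higher, 2.22% lower). The other tested probes of these genes did not pass. Rps2 probe 1 gave 23557 to 27626 in high-sugar and 24911 to 27239 in high-fat high-sugar samples. Rpl23 probe 2 gave 3246 to 5430 and then 3010 to 5637, and Rpl23 probe 3 gave 317 to 412 and then 338 to 455. Of 15 macrophage probes 4 and of 16 stellate probes 3 rose here and 0 fell (sums of 6303 to 10458 against 4210 to 7190, and of 4072 to 6460 against 4152 to 5084). Of 9 hepatocyte probes 0 rose and 2 fell (47720 to 55126 against 54578 to 63462). Of 5 neutrophil probes 1 rose, and of 4 pancreatic probes 1 fell. The part of these cells was not tested.

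Both treatments together were compared with control. The control samples were shared with sugar on the normal diet and with the high-fat diet with water. The high-fat high-sugar samples were shared with sugar on the high-fat diet and with the high-fat diet with the sugar drink. The interaction used the samples of both groups. Of the 73 probes 24 fell and 5 rose, beside 16.7% and 16.7% of all probes, with a median of −0.11 against −0.02. The smallest adjusted p of those that fell were of Rps9 probe 2 (−0.51 ± 0.08, limma adjusted p = 9.06e-06), Rps10 (−0.60 ± 0.09), Rpl27a probe 1 (−0.60 ± 0.10) and Rps15 (−0.63 ± 0.12). Those that rose were Rpl4 probe 1 (0.34 ± 0.07), Rpl27a probe 3 (0.40 ± 0.10), Rps3 probe 2 (0.43 ± 0.12), Rpl21 probe 2 (0.22 ± 0.07) and Rplp0 probe 1 (0.27 ± 0.09), the last of which no longer passed without control replicate 2 (adjusted p = 0.0725) or without replicate 5 or 6 of the high-fat high-sugar group. In 8 probes the groups were apart and lower and in 3 higher, beside 6.02% and 7.15% of all probes. Over 4096, 16 of 33 fell and 0 rose, beside 19.9% and 21.3% of the other bright probes. In this comparison 11 of 15 macrophage probes rose and 0 fell (sums of 6303 to 10458 with both treatments and 4899 to 5495 in control samples), and 7 of 16 stellate probes rose and 1 fell (4072 to 6460 and 3848 to 4044), with sums that did not overlap for either list. Of 5 neutrophil probes 3 rose, of 15 endothelial probes 2 rose and 5 fell, and of 9 hepatocyte probes 2 rose and 3 fell (47720 to 55126 and 53691 to 64389). The part of these cells in the 24 falls and 5 rises was not tested.

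Probes of the same gene often differed. Of 15 genes with more than 1 tested probe, 12 had at least 1 probe that passed with sugar on the normal diet, and in 3 all of them passed in 1 direction. Rpl27a, a large-subunit protein, had probes that passed in opposite directions with both treatments against control and with sugar on the high-fat diet. Against control, probe 1 gave −0.60 ± 0.10 (limma adjusted p = 4.53e-05) and probe 3 gave 0.40 ± 0.10 (adjusted p = 0.00263). With sugar on the high-fat diet, probe 1 (ILMN_1227653) fell from a median of 6901 to 5467 (−0.37 ± 0.10, limma adjusted p = 0.00574). There, probe 3 (ILMN_2882059) rose from 154 to 186 (0.31 ± 0.10, adjusted p = 0.0188). The call of probe 3 was lost without high-fat replicate 1 (adjusted p = 0.0569) or without high-fat high-sugar replicate 5 (adjusted p = 0.066). Probe 2, with medians of 3526 and 4248, did not pass (0.29 ± 0.12). Which transcripts each probe detects was not tested.

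**Figure D5:**
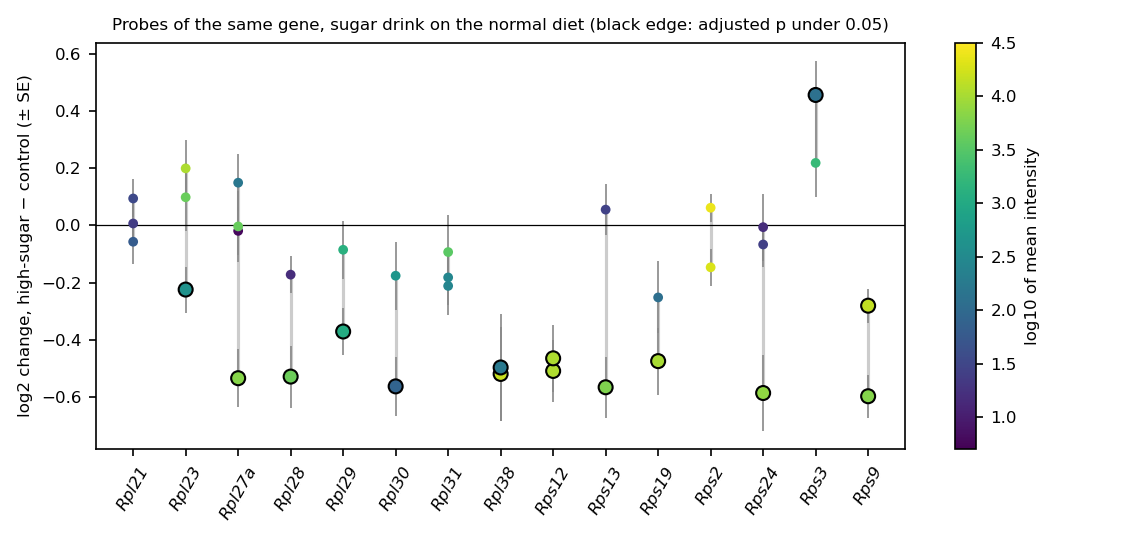
Log2 change of intensity + 32 (± SE) with sugar on the normal diet for each probe of the 15 ribosomal protein genes with more than 1 tested probe. Colour gives log10 of the probe's mean intensity and a black edge an adjusted p under 0.05. In 3 genes every probe passed in 1 direction, as for both probes of Rps9.

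Genes that act with the ribosome were counted from lists. With sugar on the normal diet, 10 of 45 ribosome biogenesis probes rose and 6 fell (median −0.01), 15 of 53 translation factor probes rose and 9 fell (0.02), 3 of 18 probes of other TOP-mRNA and ribosome-associated genes rose and 2 fell (−0.05), and 5 of 40 probes of mTORC1 and translation control rose and 4 fell (−0.04). Of 106 mitochondrial ribosomal protein probes 21 rose and 25 fell (−0.02). Over all probes 14.2% rose and 13.8% fell. The median over all probes was −0.02, and on this diet none of these lists had the low median of the cytosolic ribosomal proteins (−0.18).

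By name, Eif3a, the largest subunit of initiation factor eIF3, rose from a mean intensity of 51.5 to 120 (0.86 ± 0.09, limma adjusted p = 1.67e-07), and Eif3i, another subunit, from 691 to 1043 (0.58 ± 0.10). Eif3f of the same factor fell from 3340 to 2700 (−0.30 ± 0.06). Rheb, the GTPase that activates mTORC1, rose from 386 to 606 (0.62 ± 0.08, adjusted p = 3.52e-06), and Pdcd4, an inhibitor of the helicase eIF4A, from 1170 to 1532 (0.38 ± 0.07). Of ribosome assembly genes, Tsr1 (0.51 ± 0.10), Rrp12 (0.42 ± 0.08) and Nop58 (0.41 ± 0.08) rose. Serbp1, which binds idle ribosomes, rose on 2 dim probes (0.55 ± 0.09 and 0.57 ± 0.11), and Mrpl50 of the mitochondrial ribosome rose by 0.70 ± 0.09.

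On the high-fat diet the sugar drink gave 5 rises and 7 falls among the 45 biogenesis probes, 15 and 9 among the 53 translation factor probes, 4 and 2 among the 18 other TOP-mRNA and associated probes, 4 and 10 among the 40 probes of mTORC1 and translation control, and 15 and 24 among the 106 mitochondrial ones, beside 14.9% that rose and 14.7% that fell over all probes. The medians of these lists were, in that order, −0.06, −0.03, −0.02, −0.11 and −0.08. They stand beside −0.02 for all probes and −0.10 for the cytosolic ribosomal proteins. On the high-fat diet a low median was thus not particular to the cytosolic ribosomal proteins. Eif4ebp3, a binding protein that restrains the cap-binding factor eIF4E, fell from a mean of 1320 to 107 (−2.99 ± 0.37, 7.92-fold, limma adjusted p = 9.07e-07). Deptor, an mTOR inhibitor, fell by 0.54 (SE 0.10), and Rheb rose by 0.54 ± 0.08. Eif3a (0.77 ± 0.09), Eif3i (0.78 ± 0.10) and Tsr1 (0.63 ± 0.10) rose on this diet as well. Polr1a, the largest subunit of RNA polymerase I, fell on a dim probe (−0.45 ± 0.07), and Btf3, part of a complex that binds nascent chains at the ribosome, fell by 0.22 (SE 0.06) on its bright probe.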

How the data were processed

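The authors' deposited values are intensities of 45281 probes in 24 samples on a linear scale, made with GenomeStudio 2011.1 per the submitters' processing notes. They were already background-subtracted (37.7% were negative, the lowest −13.0) and quantile-normalised (sorted columns differed by at most 0.231), both read from the values. Log2 of intensity plus 32 was taken, which shrinks changes of dim probes. A probe was kept when it exceeded 1.645 times its array's noise SD, taken from mirrored negative values (6.50 to 6.52), on at least 6 of 24 arrays, which left 20216. A further 48 columns of non-normalised values could not be matched to samples and were not used here. The text used here gives no array positions. Precision is limited by how many arrays there are. On each array 17976 to 18010 probes exceeded the limit, a range that the normalisation forces.

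Each probe was fitted in limma 3.58.1 (R 4.3.3) with 1 mean per group and all 24 samples in 1 fit. The variances were moderated by eBayes with a trend on intensity (prior df 7.80, residual df 20). The 6 contrasts were two-sided, adjusted by Benjamini-Hochberg over all probes within each, with a threshold of 0.05. Correlations between arrays of a group were 0.986 to 0.995 and between groups 0.973 to 0.992.

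Members were matched by the array's annotated symbol, and symbols updated by gene identifier gave the same probes. Named in the text are, in each contrast, the 4 probes with the smallest adjusted p in each direction, the role lists (stalk, 5S particle, ubiquitin fusion, S6 kinase substrate, laminin receptor, paralogs) and genes with probes in opposite directions, and of each list of other genes up to 3 probes with the smallest adjusted p. Further members named beside them (Rpl9 in the interaction, Rps4x, Rpl34, Rpl23 probe 3, and second probes) were chosen after their values were seen. The members, lists and tests were chosen with earlier results of these data known. Promoter sequences are from RefSeq. Alternatives were other offsets, a floor, filters, normalisations, array weights, sample subsets, a replicate block and 1 probe per gene. Same-numbered samples did not deviate together (correlations of −0.26 to 0.30 over 36 pairs), so the numbers were not treated as pairs.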

Additional observations from a re-analysis of the deposited data

Results flagged for a closer look

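In 8 of 98 groups of 6 samples looked at for the named probes, 1 sample lay far from the other 5. The limit used flags about 1 in 20 groups when values are independent and normally distributed. Many of these probes varied together, so the 8 cannot be set against that rate. Rpl3l, never over 11.8 elsewhere, stood at 576 in high-fat high-sugar replicate 4, and the other 5 samples of that group were between −0.85 and 11.8. It failed the filter and was not tested. Rps9 probe 2 was 8948 in control replicate 4, against 6988 to 7596 in the others. Rplp2 was 3601 in high-sugar replicate 2, against 5351 to 6639, and Rps4l was 160 in the same sample, against 285 to 390. In high-fat high-sugar replicate 2, Rpl30 probe 2 was 41.0, against 57.7 to 64.7, and Rps27l was 8079, against 9925 to 10958. Rps2 probe 1 was 23868 in high-fat replicate 6, against 21693 to 22288, and Rpl28 probe 2 was 13.9 in high-sugar replicate 1, against 7.20 to 9.58. In these cases 4 of the 8 samples were replicate 2 of a sugar group, the 2 samples with the lowest medians over the bright ribosomal protein probes.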

How the results depend on the processing

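The number of ribosomal protein probes that fell with sugar on the normal diet stayed within 1.5 times of 27 under every alternative run, and no named change that passed turned its sign (73 changes, 40 of which passed, and 1880 alternative values, of which 40 lost and 16 gained a pass and 25 turned sign). The alternative that starts from the non-normalised table (neqc) was not run, since its columns could not be matched to samples. With the high-fat diet and water, 2 rose and 1 fell with a floor of 16, 2 rose with no filter, and 1 rose with the brightest probe of each gene. For the interaction, 1 was higher among probes above the limit on all arrays and 2 with array weights. With the high-fat diet and sugar drink, 3 rose with array weights, 2 with the replicate block and 0 with the brightest probe of each gene. With that probe choice, which tests 52 members in place of 73, 11 fell with the sugar drink on the high-fat diet and 2 rose with both treatments. The replicate block moved no other count by over 1.5 times, and among named changes it ended the call of Rps4l for the high-fat diet with water (adjusted p = 0.0616) and brought under the threshold Rplp1 for the high-fat diet with the sugar drink (adjusted p = 0.0452) and Rps6 for both factors against control (adjusted p = 0.0403). For both factors against control, Rps6 also passed with cyclic loess (limma adjusted p = 0.0345), array weights (0.0474) and only probes above the limit on all arrays (0.043). It passed as well without control replicate 1 (0.0181) or control replicate 6 (0.0384). Where the cause of a move is not given, the cause was not tested.

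Leaving out 1 sample at a time gave 2 to 4 rises and 21 to 30 falls with sugar on the normal diet, 7 to 11 and 12 to 20 on the high-fat diet, 2 to 6 and 0 to 3 for the high-fat diet with water, 1 to 3 and 1 to 1 with the sugar drink, 0 to 2 and 0 to 0 for the interaction, and 4 to 6 and 19 to 27 for both treatments. The 2 interaction calls and the 3 rises came without high-sugar replicate 1. The 0 falls with water came without control replicate 1, control replicate 4 or high-fat replicate 3, and the 2 rises without control replicate 1 or 2 or high-fat replicate 5. Of changes that did not pass, Rpsa turned to −0.0337 (high-fat diet with water) and 0.0213 (interaction) with the floor, Rplp1 to −0.0073 (sugar on the high-fat diet) with cyclic loess and Rps6 to 0.00882 (high-fat diet with sugar) with array weights. With single samples left out, sign turned for Rps27l (−0.0842 to 0.0747) and Rpsa (−0.113 to 0.0252) with sugar on the normal diet, Rplp1 on the high-fat diet (−0.0181 to 0.0446), Rps6 (−0.0547 to 0.0186) and Rplp2 (−0.0673 to 0.112) for the high-fat diet with sugar, and the Rplp2 interaction (−0.112 to 0.067).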
